A study of Homo sapiens with 10 samples.

Results

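The MYC, MAX and MXD network was described across 10 RNA-Seq libraries of human liver cancer cell lines. Its 10 members, MYC, MYCN, MYCL, MAX, MXD1, MXD3, MXD4, MXI1, MNT and MGA, were chosen by name, and all 10 were found by Ensembl identifier among the 58302 genes listed in each table. The study asked how PSPC1, a paraspeckle RNA-binding protein, and PTK6, a non-receptor tyrosine kinase, act on these cells, and each condition was read in 1 library.

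The 5 SK-Hep1 libraries came from cells given an empty-vector mock, wild-type PSPC1, PSPC1-Y523F (the form in which the tyrosine phosphorylated by PTK6 is replaced by phenylalanine), or either form together with PTK6. The 3 Mahlavu libraries came from a mock control, cells labelled as overexpressing the C-terminal of PSPC1 (called PSPC1-CT131 here) and cells labelled as overexpressing an NLS mutation of PSPC1 (called Mut-NLS-CT131 here). In the paper Mut-NLS-CT131 is the C-terminal part with its nuclear localization signal (NLS) mutated. The label itself does not name the C-terminal part. The 2 Huh-7 libraries came from untreated cells and from cells given 10 ng/ml hepatocyte growth factor (HGF), the ligand of the receptor MET, for 48 h. The constructs were expressed from plasmids. Whether the sequenced cells were single clones or mixed populations is not given in the sources used here. A single library stands for each condition, so conditions could not be tested, and every interval given here covers the counting of reads only, not differences between cultures.

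PSPC1 had 0 reads in SK-Hep1 mock, 209 with PSPC1, 930 with PSPC1/PTK6, 71 with PSPC1-Y523F and 2539 with PSPC1-Y523F/PTK6. PTK6 had 277, 307 and 230 reads in the SK-Hep1 libraries without added PTK6, and 1060 and 679 in those with it. In Mahlavu, PSPC1 had 1582 reads in mock and fewer, 899 and 632, in the libraries labelled PSPC1-CT131 and Mut-NLS-CT131, so these values do not show the constructs. Of 10 hepatocyte markers, 1 (SERPINA1) reached 1 FPKM in each SK-Hep1 and Mahlavu library, ALB was at 0 in both mock libraries, and all 10 reached 1 FPKM in both Huh-7 libraries. Epithelial markers reaching 1 FPKM numbered 3 to 6 of 6, mesenchymal and endothelial markers 3 to 6 of 8, and blood cell markers 0 of 6. Reads on genes ranged from 15245935 to 24278662 per library, and Mahlavu mock had reads on 24052 genes against 20999 and 21628 in the other Mahlavu libraries.

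MYC, MYCN and MYCL are basic helix-loop-helix leucine zipper transcription factors that bind DNA only after pairing with MAX, and they raise transcription of genes for growth, ribosome production and nucleotide synthesis. MXD1, MXD3, MXD4 and MXI1 (also called MXD2), together with MNT, pair with the same MAX, bind the same DNA element and recruit SIN3 and histone deacetylases, so that they oppose MYC. MGA is a large protein that also pairs with MAX and belongs to a repressive Polycomb-type complex. In the liver, MYC is low in resting hepatocytes, rises in regeneration and is a frequent oncogene of liver cancer.

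The DNA element shared by these dimers is the E-box, CACGTG, which reads the same on both strands. In RefSeq promoters of GRCh38.p14, each running from 250 bases before to 50 bases after a transcription start, it was found in 7.26% of 35116 windows. Windows were held for 9 members, 14 in number, and MXD4 and MNT each had the element in 1 window. Both stretches are printed since MXD4 is the antagonist whose FPKM spanned the widest interval in the SK-Hep1 libraries (MXI1 spanned more as a ratio) and MNT one whose level was highest in a Mahlavu library. Of the textbook MYC-activated targets described further on, 17 of the 36 with a window (47.2%) had the element in at least 1 window, against 8.77% of 27305 genes, and 33.3% of their windows held it. The stretches of ODC1, the rate-limiting enzyme of polyamine synthesis, and SLC7A5, a large neutral amino acid transporter, are shown with them. Each line is 30 bases, 5′ to 3′ on the strand of the gene, with the E-box in capitals.
MXD4: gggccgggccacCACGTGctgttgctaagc
MNT: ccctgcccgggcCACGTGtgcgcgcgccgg
ODC1: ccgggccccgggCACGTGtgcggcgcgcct
SLC7A5: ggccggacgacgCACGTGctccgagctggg

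The MXD4 stretch lies at chr4:2262330-2262359 on the minus strand, with the E-box 238 to 233 bases before the start site. The MNT stretch lies at chr17:2401236-2401265 on the minus strand, with the E-box 193 to 188 bases before the start site. Neither lies within the span that the deposited tables give for its gene. The ODC1 stretch is at chr2:10448024-10448053 and that of SLC7A5 at chr16:87869620-87869649, both on the minus strand. These matches describe the sequence only, and no binding was measured here.

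MYC (ENSG00000136997, chromosome 8, 127735434 to 127741434, plus strand, GRCh38) was the most abundant member in every SK-Hep1 library. In fragments per kilobase of transcript, scaled to library size (FPKM) after quantile normalization, its level was 167 in SK-Hep1 mock, 179 with PSPC1, 263 with PSPC1/PTK6, 156 with PSPC1-Y523F and 145 with PSPC1-Y523F/PTK6. The PSPC1/PTK6 library stood above the other SK-Hep1 libraries, with 8658 reads on MYC against 4725 to 5215 and a 95% Poisson interval of 257 to 268 FPKM. In Mahlavu, MYC was at 23.2 FPKM in mock, 24.6 with PSPC1-CT131 and 31.4 with Mut-NLS-CT131, and had 4 members above it in each of these libraries. In Huh-7, whose values were normalized separately and are given side by side only, MYC was at 109 FPKM untreated and 89.8 FPKM after HGF.

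MYCN, the paralogue best known from neuroblastoma, had 0 or 1 read in each SK-Hep1 library and 0 to 5 reads in each Mahlavu library. In Huh-7 it was at 13.0 FPKM (460 reads) untreated and 10.4 FPKM (339 reads) after HGF. MYCL, the paralogue first found in lung cancer, had the lowest level of the network in both Huh-7 libraries, at 1.80 and 2.39 FPKM. Its SK-Hep1 levels ran from 0.389 to 1.29 FPKM on 11 to 37 reads and its Mahlavu levels from 0.274 to 0.851 FPKM on 13 to 58 reads. MYC was therefore nearly the whole MYC-type RNA in SK-Hep1 and Mahlavu, and MYCN was an addition seen in the Huh-7 libraries.

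MAX (ENSG00000125952, chromosome 14, 65006174 to 65102695, minus strand) is the common partner, and its levels spanned 1.39-fold in SK-Hep1 and 1.10-fold in Mahlavu. It was at 46.5 FPKM in SK-Hep1 mock, 33.3 with PSPC1, 40.0 with PSPC1/PTK6, 40.0 with PSPC1-Y523F and 35.5 with PSPC1-Y523F/PTK6. It was at 30.7, 30.1 and 33.0 FPKM in the 3 Mahlavu libraries, and at 19.5 and 18.6 FPKM in Huh-7. In SK-Hep1 mock MAX was higher than in each of the 4 transfectants, and it was past no 1.5-fold change in the 13 comparisons made on the main scale. Between the mock libraries of the lines its log2 fold change was −0.58, just under the threshold, and it was past it with 0.1 in place of 1 added (−0.59) and with reads scaled by TMM, the trimmed mean of M-values (−0.69). MAX overlaps FNTB on the opposite strand, which had 40 to 167 reads.

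By FPKM, MXD4 was the most abundant antagonist in 9 of the 10 libraries, with MNT above it in Mut-NLS-CT131. Its level was 77.3 FPKM in SK-Hep1 mock, 132 with PSPC1, 57.1 with PSPC1/PTK6, 73.6 with PSPC1-Y523F and 108 with PSPC1-Y523F/PTK6. The SK-Hep1 libraries thus spanned 2.31-fold, with PSPC1 highest and PSPC1/PTK6 lowest. In Mahlavu it was at 84.6 FPKM in mock, 64.7 with PSPC1-CT131 and 40.3 with Mut-NLS-CT131, and in Huh-7 at 102 and 111 FPKM.

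MXD3, which peaks in dividing cells in S phase, was at 36.0 FPKM in SK-Hep1 mock, 51.1 with PSPC1, 30.9 with PSPC1/PTK6, 56.3 with PSPC1-Y523F and 36.8 with PSPC1-Y523F/PTK6. The libraries with a form of PSPC1 and no added PTK6 were the high ones. In Mahlavu it was at 27.2, 47.2 and 34.1 FPKM in mock, PSPC1-CT131 and Mut-NLS-CT131, and in Huh-7 at 35.3 and 36.2 FPKM. The MXD3 gene overlaps PRELID1 on the opposite strand and RAB24 on its own strand, and the library kit named in the labels does not mark strand, so reads of the shared stretch are uncertain. PRELID1 was at 606, 434, 386, 506 and 521 FPKM in the SK-Hep1 libraries in the order above and at 547, 499 and 444 FPKM in Mahlavu. In SK-Hep1 it was highest in mock, where MXD3 was not, and lowest with PSPC1/PTK6, where MXD3 was lowest too. In Mahlavu it was highest in mock, where MXD3 was lowest. RAB24 was at 5.44 to 7.93 FPKM in SK-Hep1 and at 4.05 to 5.92 FPKM in Mahlavu. The part of PRELID1 and RAB24 in the MXD3 values was not tested.

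MXI1 was at 6.74 FPKM in SK-Hep1 mock, 8.81 with PSPC1, 9.68 with PSPC1/PTK6, 4.08 with PSPC1-Y523F and 7.44 with PSPC1-Y523F/PTK6, on 101 to 386 reads. PSPC1-Y523F stood lowest, and its interval of 3.32 to 4.95 FPKM overlapped none of the others. In Mahlavu MXI1 was at 11.7 FPKM in mock, 10.9 with PSPC1-CT131 and 20.0 with Mut-NLS-CT131, and in Huh-7 at 26.0 and 23.3 FPKM.

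MXD1, an antagonist that rises as cells differentiate, was near 1 FPKM in SK-Hep1, at 1.07 to 1.76 FPKM on 39 to 110 reads. It was at 4.58, 4.42 and 7.01 FPKM in Mahlavu and at 12.5 and 15.2 FPKM in Huh-7. The MXD1 gene overlaps SNRNP27 on its own strand, which had 174 to 380 reads, so reads of the shared stretch are uncertain. SNRNP27 was at 9.31 to 13.6 FPKM in SK-Hep1 and at 11.4, 11.6 and 17.4 FPKM in Mahlavu. The part of SNRNP27 in the MXD1 values was not tested. MNT, the most widely expressed antagonist, was at 28.1 to 36.1 FPKM in SK-Hep1, at 38.0, 42.7 and 61.6 FPKM in Mahlavu and at 22.4 and 26.5 FPKM in Huh-7. MGA was at 5.33 to 8.02 FPKM in SK-Hep1, highest in mock, at 3.44 to 4.55 FPKM in Mahlavu and at 12.7 and 12.2 FPKM in Huh-7.

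**Figure D1:**
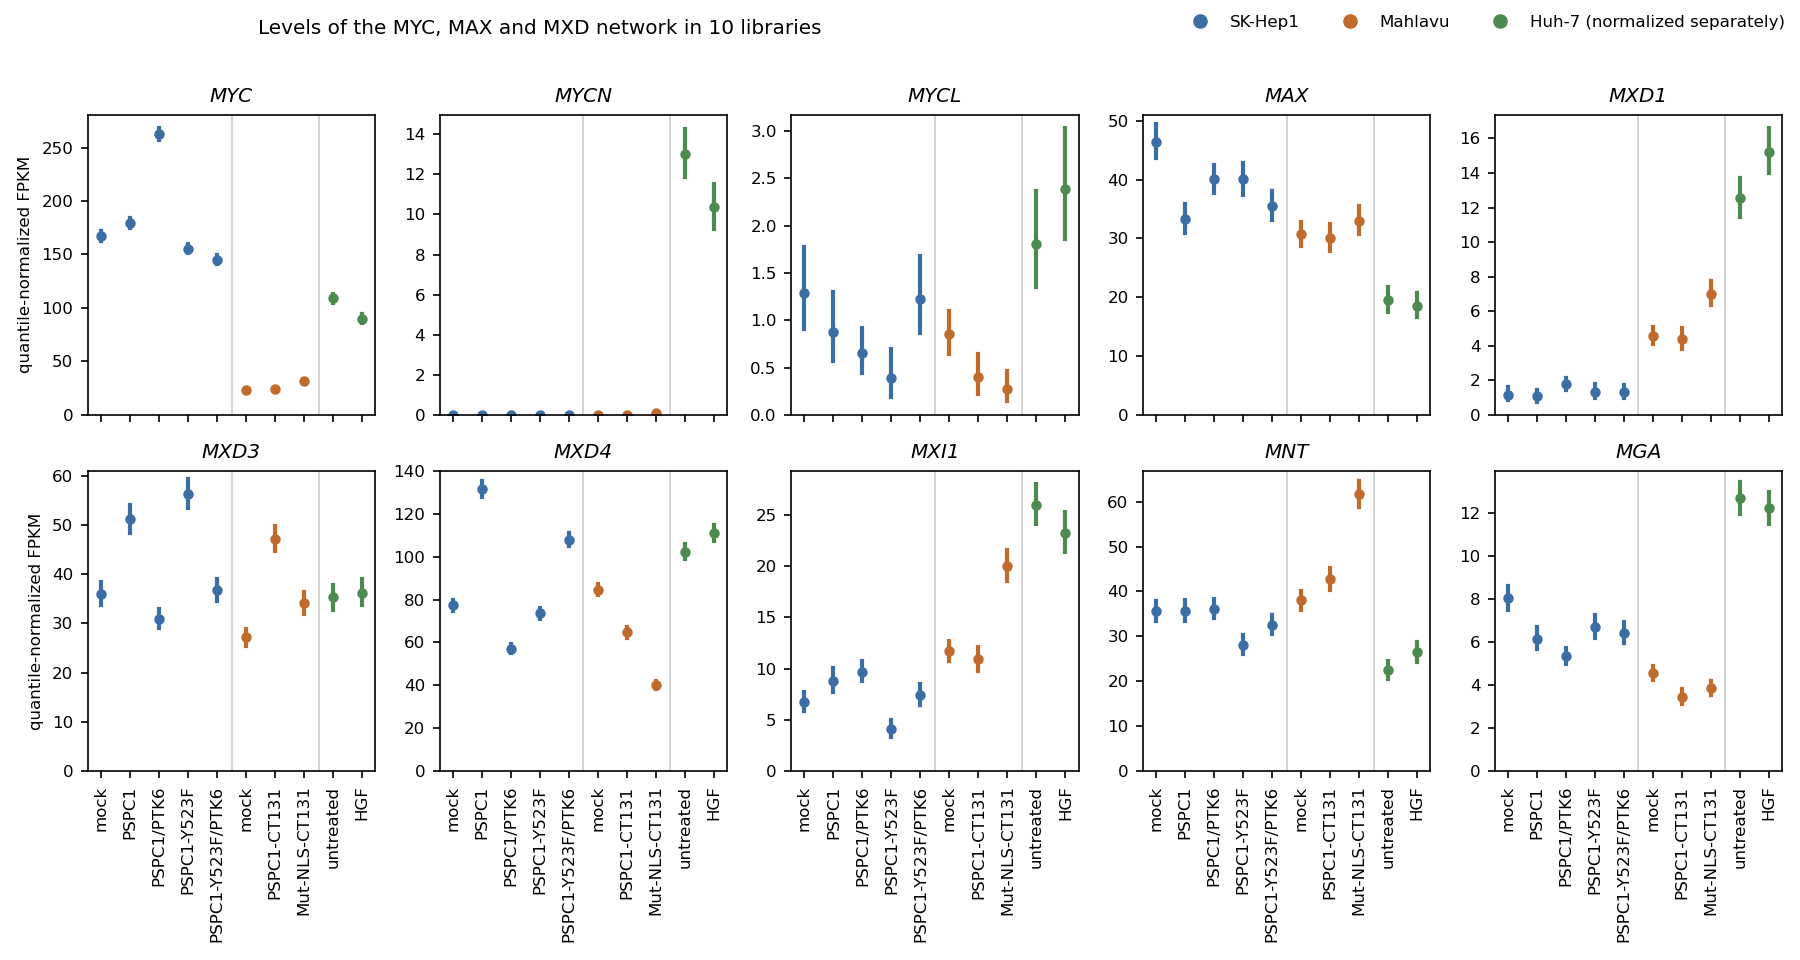
Quantile-normalized FPKM (vertical axes, linear from 0) of each network gene in the 10 libraries, with points for levels and bars for 95% exact Poisson intervals of the reads. MYC stands highest in SK-Hep1 PSPC1/PTK6 (263 FPKM) and lowest in the Mahlavu libraries (23.2 to 31.4 FPKM), and MYCN is seen in the Huh-7 libraries (13.0 and 10.4 FPKM).

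The order of levels between genes depends on the length behind each FPKM, which the intervals do not cover. Within a library the order left several neighbours whose intervals overlapped. In SK-Hep1 mock these were MXD3 and MNT (36.0 and 35.6 FPKM), MGA and MXI1, and MYCL and MXD1. In Mut-NLS-CT131, MXD3, MAX and MYC (34.1, 33.0 and 31.4 FPKM) could not be ordered beyond counting error. In untreated Huh-7, MYC (109 FPKM) was not separated from MXD4 (102 FPKM), whereas after HGF MXD4 (111 FPKM, 107 to 115) lay above MYC (89.8 FPKM, 85.8 to 93.9).

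The balance of the network was read from the deposited FPKM, which are per length. The length behind the FPKM was below the listed gene length, by an amount that differed between genes. It was 1421 against 2366 bases for MYC, 1998 against 4228 for MXD4 and 1339 against 4996 for MNT. The ratios below depend on the lengths used, which the counting intervals do not cover. They were not taken with the listed lengths. MYC-type RNA (MYC, MYCN and MYCL) over antagonist RNA (MXD1, MXD3, MXD4, MXI1, MNT and MGA) gave a ratio of 1.09 in SK-Hep1 mock (1.05 to 1.14 by counting). The ratio was 0.793 with PSPC1 (0.765 to 0.821), 1.78 with PSPC1/PTK6 (1.72 to 1.84), 1.00 with PSPC1-Y523F (0.962 to 1.04) and 0.814 with PSPC1-Y523F/PTK6 (0.784 to 0.843). MYC and MXD4 together set this spread, since MXD4 was 39.7% of the antagonist FPKM with PSPC1/PTK6 and 57.7% with PSPC1. The PSPC1/PTK6 library was therefore the one with MYC high and MXD4 low, and PSPC1 and PSPC1-Y523F/PTK6 the ones with MXD4 high.

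In Mahlavu the ratio was 0.151 in mock, 0.143 with PSPC1-CT131 and 0.194 with Mut-NLS-CT131, and antagonists made up 71.8% to 76.1% of the network. All 3 ratios lay below every SK-Hep1 ratio. In Huh-7 the ratio was 0.587 untreated (0.561 to 0.612) and 0.456 after HGF (0.434 to 0.478). MAX was the smallest class in Huh-7, at 5.54% and 5.36% of the network, and in SK-Hep1, at 7.15% to 11.9%. In Mahlavu the smallest class was MYC-type RNA, at 10.9% to 13.9%. The ratio of MYC-type RNA to MAX was 6.31 in untreated Huh-7, 3.86 in SK-Hep1 mock and 0.809 in Mahlavu mock. These are RNA levels of whole cultures, in which fewer cells expressing a gene and less RNA per cell cannot be told apart.

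For the comparisons, a log2 fold change was taken between 2 libraries on the log2(quantile-normalized FPKM + 1) scale, which understates changes of low genes. Genes whose 2 libraries averaged 1 FPKM or more were compared, and 1.5-fold was the size at which a change was counted. MYC, MAX and the 6 antagonists passed the level filter in all 13 comparisons, MYCL in 4 and MYCN in 1. Of the resulting 109 values, 22 were past 1.5-fold, namely 6 each for MXD4 and MXI1, 4 for MXD3, 3 for MYC and 1 each for MXD1, MNT and MGA. Of all genes compared, 3.26% (HGF against untreated) to 55.7% (between the mock libraries) were past 1.5-fold, so the pooled count is not read as particular to the network. Comparisons within a line share libraries and are not independent.

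PSPC1 was set against mock to ask what the protein alone does in SK-Hep1, a line with 0 PSPC1 reads. MXD4 was higher by 0.76 on the log2 scale (0.70 to 0.82 by counting, from 3258 to 5169 reads), the only one of 9 members compared past 1.5-fold, where 18.2% of 12410 genes were. MXD3 was 0.49 higher and MAX differed by −0.47, both under the threshold, and MYC differed by 0.10.

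With PSPC1/PTK6 against mock, MYC was higher by 0.65 (0.60 to 0.70) and was the only one of 8 members past 1.5-fold, where 25.2% of 12436 genes were. A share of 79.0% of the genes compared changed less than MYC. The MYC change fell under 1.5-fold with FPKM scaled to a common sum (0.58) and with reads scaled by TMM (0.42), so its size depended on the scaling while its direction did not. MGA differed by −0.51, MXI1 by 0.46 and MXD4 by −0.43 in the same comparison.

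Markers of other cell states moved beside the SK-Hep1 libraries. The summed level of the 6 epithelial markers was 8231 FPKM in mock, 6655 with PSPC1, 5268 with PSPC1/PTK6, 9430 with PSPC1-Y523F and 10851 with PSPC1-Y523F/PTK6, and that of the 8 mesenchymal and endothelial markers ran from 461.6 to 809.8 FPKM, highest in mock. FN1 (fibronectin) was at 98.5 FPKM in mock, 20.6 with PSPC1, 10.5 with PSPC1/PTK6, 23.9 with PSPC1-Y523F and 46.3 with PSPC1-Y523F/PTK6. CLDN1, a tight junction protein, was at 5.91, 3.86, 14.7, 1.90 and 7.77 FPKM in that order, and the keratin KRT19 at 296, 617, 442, 631 and 1097 FPKM. The library highest in MYC was thus the lowest in FN1 and the highest in CLDN1. It was also the lowest in the keratins KRT8 (3643 FPKM against 5864 in mock) and KRT18 (1168 against 2065). VIM (vimentin) was at 671 FPKM there and 693 FPKM in mock, and KRT8 made up most of the epithelial sums. The markers thus had no common direction, and their part in the network values was not tested.

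With PSPC1-Y523F against mock, MXD3 was higher by 0.63 (0.51 to 0.75) and MXI1 lower at −0.61 (−0.97 to −0.26), 2 of 8 members where 18.7% of 12382 genes were past 1.5-fold. Both calls ended with 5 in place of 1 added before the log (0.58 and −0.37) and with length and GC content taken out (0.52 and −0.51). With PSPC1-Y523F/PTK6 against mock, none of 9 members passed 1.5-fold, where 15.3% of 12412 genes did. The largest value was 0.48 for MXD4 (0.41 to 0.54), which was 0.60 with TMM-scaled reads, past the threshold.

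Adding PTK6 to PSPC1 was the comparison with the largest single change of a member within SK-Hep1. PSPC1 itself had 209 reads without and 930 with PTK6, so the values do not stand for PTK6 alone. MXD4 was lower, at −1.19 (−1.26 to −1.12), a level of 57.1 against 132 FPKM, and MXD3 was lower at −0.71 (−0.83 to −0.59). These were 2 of 8 members, where 15.4% of 12391 genes were past 1.5-fold, and 96.6% of the genes compared changed less than MXD4. MYC was 0.55 higher (0.50 to 0.60), short of the threshold. The MXD3 call ended with the deposited and the scaled FPKM, at −0.57 in both.

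Adding PTK6 to PSPC1-Y523F gave another pattern, between libraries with 71 and 2539 reads of PSPC1. MXI1 was higher by 0.73 (0.39 to 1.09) and MXD3 lower at −0.60 (−0.72 to −0.49), 2 of 8 members where 19.7% of 12398 genes were past 1.5-fold. MXD4 was 0.55 higher, and 0.69 with TMM-scaled reads, while MYC was at −0.10. Both calls ended with 5 added, at 0.45 for MXI1 and −0.55 for MXD3. MXD3 was lower with PTK6 on both forms of PSPC1, at −0.71 and −0.60, whereas MXD4 was lower on the wild-type form and higher on the mutated form.

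The forms of PSPC1 were also set against each other. Without PTK6, PSPC1-Y523F had less MXD4 than PSPC1, at −0.83 (−0.90 to −0.76), and less MXI1, at −0.95 (−1.30 to −0.61), 2 of 8 members where 18.0% of 12389 genes were past 1.5-fold. With PTK6, PSPC1-Y523F/PTK6 had less MYC than PSPC1/PTK6, at −0.85 (−0.90 to −0.80), and more MXD4, by 0.91 (0.84 to 0.97), 2 of 8 members where 23.1% of 12429 genes were. The MYC value was −0.53 with TMM-scaled reads, under 1.5-fold. PSPC1 reads also differed between the forms, 71 against 209 without PTK6 and 2539 against 930 with it, and the part of construct level in these values, and in those of adding PTK6, was not tested.

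**Figure D2:**
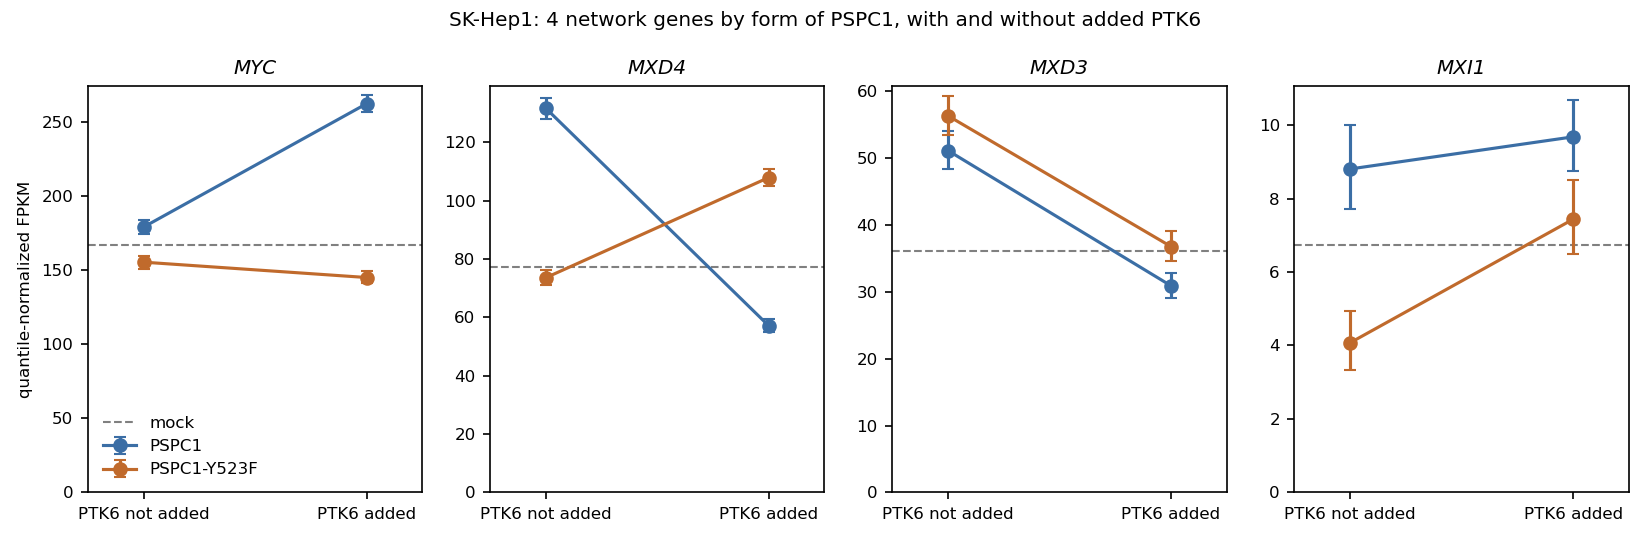
Quantile-normalized FPKM of MYC, MXD4, MXD3 and MXI1 in SK-Hep1 with PSPC1 or PSPC1-Y523F, without and with added PTK6, with mock as a dashed line and 95% Poisson intervals as bars. The MXD4 lines cross, from 132 to 57.1 FPKM with PSPC1 and from 73.6 to 108 FPKM with PSPC1-Y523F, and the MXD3 lines both run down.

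In Mahlavu, the library labelled PSPC1-CT131 had more MXD3 than mock, by 0.77 (0.65 to 0.90), the only one of 8 members past 1.5-fold, where 23.5% of 12415 genes were. That value was 0.55 with the deposited or scaled FPKM and 0.45 with length and GC content taken out, under the threshold each time. MYC differed by 0.08, and by −0.17 to 0.12 over the alternatives, which include both directions.

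The library labelled Mut-NLS-CT131 differed from mock in 3 of 8 members, where 22.4% of 12425 genes were past 1.5-fold. MXD4 was lower at −1.05 (−1.13 to −0.97), MXI1 higher by 0.73 (0.57 to 0.89) and MNT higher by 0.68 (0.58 to 0.79). MXD4 and MNT kept their side of the threshold under each scaling, pseudocount and correction tried, and MXI1 was at 0.58 with the deposited FPKM, just under it. MYC was 0.42 higher (0.29 to 0.55).

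Set against Mut-NLS-CT131, PSPC1-CT131 had more MXD4, by 0.67 (0.58 to 0.76), and less MXI1, at −0.82 (−1.01 to −0.63), 2 of 8 members where 30.1% of 12453 genes were past 1.5-fold. The MXD4 call ended with deposited FPKM (0.55), scaled FPKM (0.54) and length and GC content taken out (0.33). MNT was at −0.52 and MXD1 at −0.57, short of the threshold, but both were past it under other settings. MNT was at −0.60 with deposited FPKM, −0.61 with scaled FPKM and −0.94 with length and GC content taken out, and MXD1 ran from −0.86 to −0.66 with deposited FPKM, scaled FPKM, TMM-scaled reads and 0.1 added. Epithelial markers moved beside these libraries, with KRT8 at 1572 FPKM in Mahlavu mock, 1476 with PSPC1-CT131 and 535 with Mut-NLS-CT131, and their part in the network values was not tested.

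Between the mock libraries of the lines, Mahlavu had less MYC than SK-Hep1, with a log2 fold change of −2.80 (−2.90 to −2.70) and 23.2 against 167 FPKM. MXD1 was higher by 1.36 (0.90 to 1.85) and MXI1 by 0.71 (0.47 to 0.96), and MGA was lower at −0.70 (−0.84 to −0.56). These were 4 of 9 members, where 55.7% of 12861 genes were past 1.5-fold. MYC changed more than 94.2% of the genes compared. Over the alternatives MXD1 ran from 0.63 to 2.24, and it fell below the filter at a mean of 5 FPKM. MXI1 ran from 0.50 to 1.34, and its call ended with 5 added (0.51) and with length and GC content taken out (0.50). The MGA value was −0.06 with deposited FPKM and −0.03 with scaled FPKM, so no difference of MGA between the lines is read from it.

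HGF left all 10 members under 1.5-fold in Huh-7, where 3.26% of 14262 genes were past it. The log2 fold change was −0.28 for MYC (−0.36 to −0.19) and −0.30 for MYCN (−0.51 to −0.10). MXD1 was 0.26 higher (0.08 to 0.44), MNT 0.23 higher (0.05 to 0.41) and MXD4 0.11 higher (0.05 to 0.18). The intervals of these differences excluded 0 by counting, and with 1 library per condition they have no check against culture-to-culture spread.

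The regulators around the network were described from fixed lists. Of the MLX arm, in which MLX takes the place of MAX for the glucose-sensing factors MLXIP and MLXIPL, TXNIP, a textbook target of these factors, varied most in SK-Hep1. TXNIP was at 5.13 FPKM in mock, 37.4 with PSPC1, 54.2 with PSPC1/PTK6, 7.99 with PSPC1-Y523F and 1.98 with PSPC1-Y523F/PTK6, and the high libraries were those with wild-type PSPC1. MLXIP was at 65.8, 34.2, 24.5, 53.6 and 41.5 FPKM in the same order. MLX itself stayed between 44.9 and 55.9 FPKM.

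Of 16 MYC cofactors (chromatin and elongation factors that MYC recruits), none was higher and 4 were lower past 1.5-fold with PSPC1/PTK6 against mock, where 12.4% of all genes compared were higher and 12.8% lower. The median of the list was −0.37 against −0.04 over all genes. EP400, an ATPase of the TIP60 complex, went from 38.8 to 14.2 FPKM and HCFC1, a MYC-binding scaffold, from 78.2 to 41.1 FPKM. With PSPC1-Y523F against mock none of the 16 was past 1.5-fold in either direction, where 9.33% of all genes were higher and 9.33% lower. With PSPC1/PTK6 against PSPC1 none was higher and 4 were lower, where 8.09% and 7.34% of all genes were. With PSPC1-CT131 against Mut-NLS-CT131 5 were higher and 1 lower, where 14.9% and 15.2% of all genes were.

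HDAC1, a deacetylase of the SIN3 complexes that MXD proteins and MNT recruit, was at 163 FPKM in Mahlavu mock and 76.8 FPKM with Mut-NLS-CT131. Of 14 genes of MYC protein turnover, none was higher past 1.5-fold in the 6 comparisons with mock in SK-Hep1 and Mahlavu, where 8.19% to 12.4% of all genes were. Lower past 1.5-fold were 2 with PSPC1, 2 with PSPC1/PTK6, 0 with PSPC1-Y523F, 1 with PSPC1-Y523F/PTK6, 3 with PSPC1-CT131 and 1 with Mut-NLS-CT131, where 7.10% to 12.8% of all genes were. SKP2, part of a ubiquitin ligase acting on MYC, was at 30.2 FPKM in Mahlavu mock, 15.8 with PSPC1-CT131 and 12.4 with Mut-NLS-CT131.

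PVT1, the long non-coding RNA beside MYC on chromosome 8, was at 33.4, 36.5, 40.7, 29.8 and 34.5 FPKM in SK-Hep1, in the order used for TXNIP. It was highest where MYC was highest, though 0.28 higher than mock on the log2 scale against 0.65 for MYC. In Mahlavu it was at 11.8 to 13.8 FPKM, and in Huh-7 at 1.97 and 1.49 FPKM although MYC was at 109 and 89.8 FPKM there. MYCNOS, the antisense RNA of MYCN, was at 2.65 and 1.94 FPKM in Huh-7, and its reads cannot be told apart from those of MYCN in the shared stretch.

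The textbook targets of MYC were counted beside MYC itself. Of 45 activated targets with enough signal (ribosome biogenesis, nucleotide and polyamine synthesis, cell cycle), 1 was higher and 13 were lower past 1.5-fold with PSPC1/PTK6 against mock, where 12.4% and 12.8% of all genes were. Their median was −0.30 against −0.04 over all genes, in the library where MYC was 0.65 higher. ODC1 went from 125 to 53.1 FPKM and CDC25A, a cell cycle phosphatase, from 20.9 to 8.45 FPKM, while POLR3G, a subunit of RNA polymerase III, went from 10.9 to 23.6 FPKM. With PSPC1 against mock the counts were also 1 and 13, where 9.56% and 8.66% of all genes were higher and lower, with a median of −0.31 at a MYC difference of 0.10. Both lower medians share the same mock library. With PSPC1/PTK6 against PSPC1, at a MYC difference of 0.55, the counts were 1 and 3, where 8.09% and 7.34% of all genes were. With PSPC1-Y523F/PTK6 against PSPC1/PTK6, at a MYC difference of −0.85, they were 5 and 3, where 11.8% and 11.3% of all genes were. The medians were −0.005 and 0.02.

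With PSPC1-Y523F against mock the activated targets had 3 higher, 4 lower and a median of −0.13, and with PSPC1-Y523F/PTK6 they had 1 higher, 8 lower and a median of −0.33. Of all genes, 9.33% were higher and 9.33% lower in the first of these comparisons, and 8.19% and 7.10% in the other. NPM1, a nucleolar chaperone, was at 1444 FPKM in mock and 748 FPKM with PSPC1-Y523F/PTK6. In Mahlavu, 44 were compared, with 1 higher, 13 lower and a median of −0.31 for PSPC1-CT131, and 1 higher, 16 lower and a median of −0.35 for Mut-NLS-CT131. Of all genes, 11.2% were higher and 12.3% lower with PSPC1-CT131, and 11.1% and 11.3% with Mut-NLS-CT131. SLC7A5 was at 844, 293 and 218 FPKM in the 3 Mahlavu libraries and at 512, 271, 289, 504 and 399 FPKM in SK-Hep1. With HGF none of 45 passed 1.5-fold, where 1.81% of all genes were higher and 1.45% lower. The median of the 45 was −0.16 against 0.00 over all genes.

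Of the repressed targets, 10 were compared with PSPC1/PTK6 against mock, and 4 were higher and none lower past 1.5-fold, where 12.4% and 12.8% of all genes were, with a median of 0.48 against −0.04 over all genes. GADD45A, a growth arrest and DNA damage gene, went from 253 to 643 FPKM and CDKN1C, a cell cycle inhibitor, from 9.29 to 17.8 FPKM. With PSPC1-Y523F against PSPC1 none of 10 was higher and 5 were lower, where 8.77% and 9.23% of all genes were, with a median of −0.65 against 0.01 over all genes, and CDKN1C was at 2.73 against 14.4 FPKM. Of the activated targets, 9 of 45 were higher and 1 lower there, with a median of 0.21. Some other comparisons of repressed targets had both directions. With PSPC1 against mock 3 of 10 were higher and 2 lower, where 9.56% and 8.66% of all genes were. With Mut-NLS-CT131 against mock 5 of 13 were higher and 2 lower, where 11.1% and 11.3% were. With PSPC1-CT131 against Mut-NLS-CT131 2 of 13 were higher and 4 lower, where 14.9% and 15.2% were. Between the mock libraries of the lines, CDKN1A, the p53-induced cell cycle inhibitor, was at 370 FPKM in SK-Hep1 and 3.25 FPKM in Mahlavu. For MTHFD2, a mitochondrial folate enzyme among the activated targets, SK-Hep1 mock had 60.2 FPKM and Mahlavu mock was listed at 0.

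The genes whose pattern was most like that of MYC were sought over the 8 SK-Hep1 and Mahlavu libraries, after centring each gene within its line, among the 9398 genes that averaged 5 FPKM or more. Pearson's r was 0.98 for FTL (ferritin light chain) and for CAMTA1 (a calmodulin-binding transcription activator), and 0.97 for POLB (DNA polymerase beta), STOM (stomatin) and PHLDA1. A total of 81 genes had an r of at least 0.9. These points share their library, its depth and its normalization, and PSPC1/PTK6 holds the highest value, so r is a description. FTL was at 4575, 4950, 7114, 4156 and 3698 FPKM in the SK-Hep1 libraries in the same order as TXNIP. Among the other members r with MYC was 0.70 for MXI1, 0.63 for MNT, 0.20 for MAX, −0.35 for MXD3, −0.58 for MGA and −0.67 for MXD4.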

How the data were processed

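RNA-Seq of 10 libraries, 1 per condition, was used as deposited. The authors deposited raw counts with FPKM for 8 libraries, and FPKM alone for Huh-7. The FPKM follow from a count, the library total and 1 length per gene, which also gave whole reads for 100% of the Huh-7 values (tolerance 0.1 read). For each member this length is shorter than the listed one. The submitters' processing notes name TopHat2 2.0, HTSeq 0.6.1, edgeR and GRCh38.p12, whereas the paper's methods name hg18. The labels describe poly-T bead selection, the paper rRNA depletion. Positions equal those of GENCODE 29 for 97.6% of genes.

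FPKM were quantile normalized over those 8 libraries jointly and over the Huh-7 pair separately (numpy 2.4.6, pandas 2.3.3), 1 was added before the log2, and genes averaging 1 FPKM or more in a comparison were counted at 1.5-fold. Intervals are 95% exact Poisson or Clopper-Pearson (scipy 1.17.1). Reads carry no molecular identifiers. The comparison step was tested on simulated data. edgeR 4.0.16 gave TMM factors for an alternative. The members, lists and comparisons were chosen with earlier results of these data known, among them medians of MYC target lists. Named are all members, up to 2 rises and 2 falls per list and comparison, the constructs, markers, and the 5 genes most like MYC. Levels of KRT8, ALB, PVT1, MLX, PRELID1, RAB24 and MYCNOS were added after values were seen. The promoters of ODC1 and SLC7A5 were chosen likewise. The counts of the corepressor list are not reported here.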

Additional observations from a re-analysis of the deposited data

Results flagged for a closer look

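MXD4 differed between the forms of PSPC1 in opposite directions without and with PTK6. PSPC1-Y523F had less MXD4 than PSPC1, at −0.83 on the log2 scale, and PSPC1-Y523F/PTK6 had 0.91 more than PSPC1/PTK6, so the log2 difference changed by 1.74. Each of the 4 conditions is 1 library, and the difference was not tested. Under the alternatives tried the first value ran from −0.89 to −0.80 and the second from 0.76 to 1.17.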

How the results depend on the processing

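With 10 kinds of alternative tried, no counted change of a member turned its direction, and the cause of the moves below was not tested. The counts below stand without the share of all genes under the same setting, so they are not read as results about the members. A 2-fold threshold left 0 members in PSPC1, PSPC1/PTK6, PSPC1-Y523F and PSPC1-CT131 against mock, in PSPC1-Y523F/PTK6 against PSPC1-Y523F, in both comparisons of the PSPC1 forms and in PSPC1-CT131 against Mut-NLS-CT131. It left 1 in PSPC1/PTK6 against PSPC1 and in Mut-NLS-CT131 against mock, and 2 between the mock libraries. Adding 5 left 0 in PSPC1-Y523F against mock and in PSPC1-Y523F/PTK6 against PSPC1-Y523F, and 2 between the mock libraries. Taking out length and GC content left 0 in PSPC1-Y523F against mock. PSPC1/PTK6 against mock had 3 members with deposited FPKM and 2 each with scaled FPKM and TMM, with MXD1 (0.68 to 0.78) and MXI1 (0.61 to 0.75) now counted. PSPC1-Y523F/PTK6 against PSPC1/PTK6 had 4 with deposited and with scaled FPKM, PSPC1-Y523F/PTK6 against mock had 1 with TMM, and PSPC1-CT131 against mock had 2 with scaled FPKM. The MYC-type to antagonist ratio from quantile-normalized FPKM was 1.02 in SK-Hep1 mock, 1.87 with PSPC1/PTK6, 0.141 in Mahlavu mock, 0.761 with PSPC1-Y523F/PTK6 and 0.917 with PSPC1-Y523F. Without MGA it was 1.15, 1.86, 0.624 and 0.482 in SK-Hep1 mock, PSPC1/PTK6, untreated and HGF-treated Huh-7.

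Deposited FPKM moved the median of all genes by 0.19 in PSPC1/PTK6 against mock, 0.22 against PSPC1, −0.29 in PSPC1-Y523F/PTK6 against PSPC1/PTK6, −0.26 in PSPC1-CT131 against mock, −0.14 against Mut-NLS-CT131 and 0.46 between the mock libraries, and scaled FPKM moved it by up to 0.53. The median of the activated targets took both signs in PSPC1/PTK6 against PSPC1 and in PSPC1-Y523F/PTK6 against PSPC1/PTK6, and that of the repressed targets in 5 comparisons, for which no direction is given. Normalization within each line gives no value between the lines. No paired analysis was possible because each condition has 1 library.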
